A study of Mus musculus with 12 samples.

Results

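The genes described here were the 3 D-type cyclins *Ccnd1*, *Ccnd2* and *Ccnd3*, their kinase partners *Cdk4* and *Cdk6*, and 5 genes whose products hold back the cell cycle, *Cdkn1a*, *Cdkn1b*, *Cdkn2c*, *Rb1* and *Wee1*. They were chosen by name, and all 10 were found among the 13233 genes measured. RNA was sequenced from primary hernia-associated fibroblasts (HAFs), the skeletal muscle fibroblasts grown from the lower abdominal muscle (LAM) of Aromhum mice, which carry a human aromatase transgene with several of its own promoters and herniate. All 12 samples shared this genotype, and there was no wild-type group. The 4 groups of 3 samples were vehicle (ethanol and DMSO), estradiol (E2, 10 nM), E2 (10 nM) plus fulvestrant (100 nM), and fulvestrant (100 nM) alone, each for 48 h. Fulvestrant binds the estrogen receptor ESR1, blocks it and promotes its degradation. Per the study's methods, the mice were male, the cells were separated by adherence and passaged once, starved of serum overnight and then kept in very little charcoal-stripped serum, and fulvestrant or DMSO was added before E2 or ethanol. The ages of the mice, and whether replicates of a group came from different mice or cultures, are not given in the sources used here, so p-values measure the spread between these samples, which may be technical.

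D-type cyclins are the part of the cell cycle engine that responds to growth factors. They bind and activate CDK4 and CDK6, which phosphorylate the retinoblastoma protein RB1, and RB1 then lets go of the E2F transcription factors that switch on genes for DNA replication. The INK4 protein p18 (*Cdkn2c*) binds CDK4 and CDK6 and keeps cyclin D off, whereas the CIP/KIP proteins p21 (*Cdkn1a*) and p27 (*Cdkn1b*) inhibit CDK2 complexes and can also help cyclin D assemble with CDK4. WEE1 acts later, placing an inhibitory phosphate on CDK1 before mitosis. *Ccnd1* is a textbook estrogen-induced gene in breast epithelium, and p27 protein is high in quiescent fibroblasts. Much of the control of p27, cyclin D and WEE1 is through protein stability, which RNA does not show.

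The beginnings of the 3 D-cyclin coding sequences are shown because their products share the short LxCxE motif by which they dock on RB1. Each line gives the first 60 coding bases, 5′ to 3′ on the minus strand for *Ccnd1* and *Ccnd2* and on the plus strand for *Ccnd3*, from the GENCODE transcripts of GRCm38, with the codons of the motif in capitals. The positions were chr7:144939634-144939693 for *Ccnd1*, chr6:127150714-127150773 for *Ccnd2* and chr17:47593655-47593714 for *Ccnd3*, all within exons.
Ccnd1: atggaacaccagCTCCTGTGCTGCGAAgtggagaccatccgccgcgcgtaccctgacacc
Ccnd2: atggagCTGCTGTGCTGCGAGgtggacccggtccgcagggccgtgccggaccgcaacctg
Ccnd3: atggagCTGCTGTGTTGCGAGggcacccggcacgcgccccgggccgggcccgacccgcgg
Of the 15 motif bases, 13 were identical between *Ccnd1* and *Ccnd2*, 12 between *Ccnd1* and *Ccnd3*, and 14 between *Ccnd2* and *Ccnd3*. The complete coding sequences measured 888, 870 and 879 bases.

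Reads on the listed genes ranged from 18827792 to 44040507 per sample, and every listed gene had at least 10 reads in every sample. Of the fibroblast markers, 7 of 7 were measured, and their summed normalized count ran from 307728.1 to 398610.7 in vehicle, from 341056.8 to 430653.7 in E2, from 244686.4 to 303234.7 in E2 plus fulvestrant and from 229670.6 to 329741.7 in fulvestrant. None of the 7 myogenic markers (0 of 7) and none of the 4 adipocyte markers (0 of 4) was listed, and the defining markers *Pecam1*, *Cdh5*, *Ptprc* and *Adgre1* were not listed either. The remaining markers were *Tek* (1 of 4 endothelial markers, 58.4 to 276.5 in vehicle, 65.1 to 166.5 in E2, 83.7 to 259.4 in E2 plus fulvestrant and 70.6 to 192.6 in fulvestrant), 2 of 4 immune markers (summed, 147.8 to 165.3, 105.5 to 138.1, 166.8 to 210.5 and 179.2 to 201.1 in the same order of groups) and 2 of 4 mural markers (114.8 to 314.3, 101.6 to 234.8, 108.2 to 183.2 and 81.1 to 176.0). Samples carrying the number 1 stood apart from those numbered 2 and 3 in every group. Replicate 1 lay outside the range of replicates 2 and 3 for 6 of the 10 genes, against 45.0% of all genes.

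Levels were compared between genes only as normalized counts per kb of annotated exon sequence, on a linear scale. *Ccnd2* was the most abundant of the 10, with a mean of 3055.5 per kb over the 12 samples and a range of 2767 to 3501 that did not overlap the next gene. *Cdkn1a* followed at 2183 (1863 to 2327.5), then *Cdk4* at 1751 (1312.5 to 2024), *Ccnd1* at 1081 (631 to 1505), *Cdkn1b* at 894 (674 to 1170.2) and *Ccnd3* at 728 (625 to 915), and in this run each gene's range overlapped that of the gene before it. *Wee1* at 194 (145 to 289.7) and *Rb1* at 187 (159 to 231.5) lay below all of these and overlapped each other. *Cdk6* at 72.8 (49.6 to 100.7) and *Cdkn2c* at 71.1 (55.8 to 99.1) were lowest and overlapped as well. The *Cdk4* transcript stood above *Cdk6* and *Cdkn1a* above *Cdkn2c* in all samples.

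**Figure D1:**
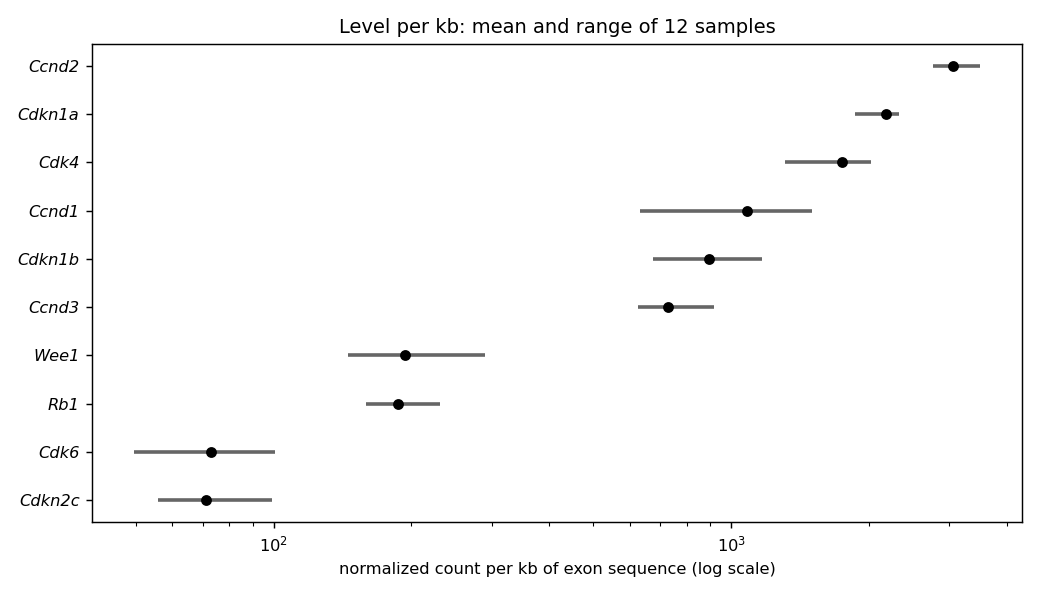
Normalized count per kb of exon sequence on a logarithmic axis for the 10 genes, with points for the mean and bars for the lowest and highest of the 12 samples. *Ccnd2* lies highest at 3055.5 per kb, and *Cdk6* and *Cdkn2c* lie lowest at 72.8 and 71.1.

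Across the 4 groups, the main differences were with fulvestrant. *Ccnd1* and *Cdk6* transcripts rose, by 1.52-fold and 1.28-fold on average over cells with and without E2, and *Wee1* passed the thresholds narrowly at 1.21-fold. These were 3 of 10 genes, beside 15.5% of all genes called in either direction. Without the replicate block none of the 3 was called (adjusted p by limma of 0.294, 0.398 and 0.532). The log2 difference of *Ccnd1* averaged 0.08 in replicate 1 and 0.86 in replicates 2 and 3, and that of *Wee1* 0.55 and 0.13. The other 7 genes were called in none of the comparisons of groups, and of these *Ccnd3* and *Cdkn1b* passed the adjusted p but not the fold threshold. E2 alone moved none of the 10 genes past the thresholds, *Ccnd1* included (1.01-fold), but only 0.0756% of all genes passed in that comparison. The call rule was an adjusted p under 0.05, by limma with Benjamini-Hochberg adjustment over all 13233 genes and the replicate number as a block, together with a fold change over 1.2. Changes are given on the log2(normalized count + 1) scale, with standard errors (SE) or 95% intervals from the same fit.

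**Figure D2:**
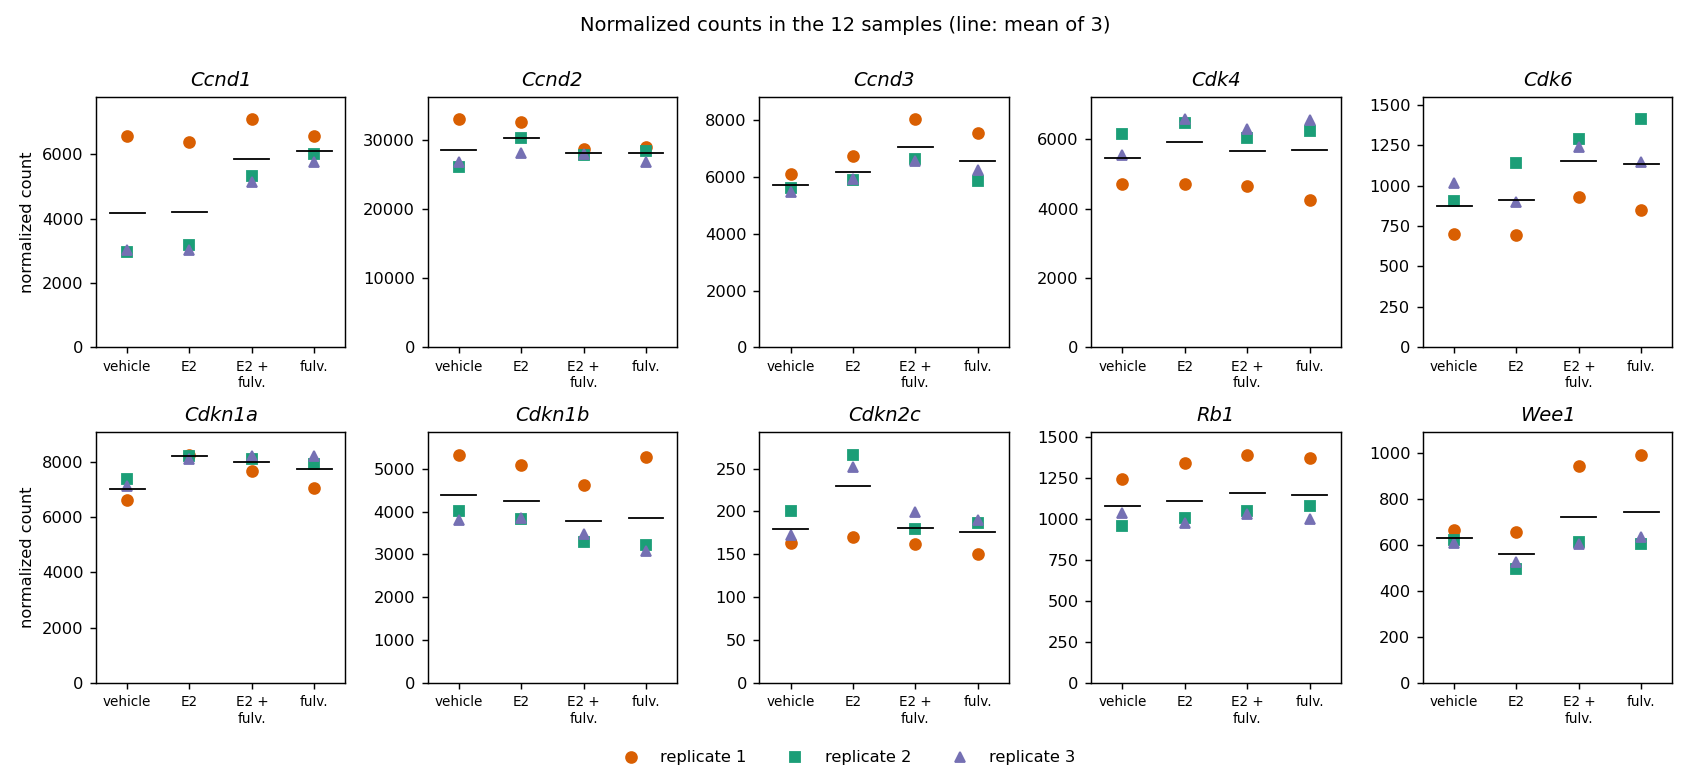
Normalized count (linear axes from 0) for each gene in the 4 groups, with a point for each of the 12 samples, its shape and colour giving the replicate number, and a line for the mean of 3. *Ccnd1* lies between 5151 and 7087 in every fulvestrant-treated sample, at 6385 or above in replicate 1 of all groups, and between 2973 and 3172 in replicates 2 and 3 without fulvestrant.

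*Ccnd1*, encoding cyclin D1, lies on chr7:144929931-144939925 on the minus strand. Its normalized counts in replicates 1, 2 and 3 were 6559.6, 2973 and 3025 in vehicle, 6385, 3172 and 3036 in E2, 7087, 5331 and 5151 in E2 plus fulvestrant, and 6572, 6016 and 5767 in fulvestrant. The 4 samples numbered 1 were all high, and in replicates 2 and 3 every fulvestrant-treated sample lay above every sample without it. Because of replicate 1, the groups overlapped. Fulvestrant alone raised *Ccnd1* against vehicle by 0.65 (SE 0.17, adjusted p = 0.0262), whereas E2 plus fulvestrant against E2 gave 0.55 (SE 0.17, adjusted p = 0.059), short of the threshold. The average of these 2 differences was 0.60 (95% interval 0.34 to 0.87, adjusted p = 0.00389). Without the replicate block that average had an adjusted p of 0.294, and over all alternatives its adjusted p ran from 2.06e-07 to 0.294. It was 0.86 (adjusted p = 2.06e-07) without the samples numbered 1, but 0.46 (0.0931) without those numbered 2 and 0.48 (0.0982) without those numbered 3. The call against vehicle was also lost without vehicle replicate 2 (0.53, adjusted p = 0.12), vehicle replicate 3 (0.57, 0.114), fulvestrant replicate 2 (0.52, 0.126) or fulvestrant replicate 3 (0.54, 0.126), and without all samples numbered 2 (0.47, 0.273) or 3 (0.51, 0.289). It was lost as well without the replicate block (adjusted p = 0.781), without a variance trend (0.0665) and in a fit on these 2 groups alone (0.101). The difference in cells given E2 passed the threshold without vehicle replicate 1 (0.55, adjusted p = 0.0268), E2 replicate 1 (0.71, 0.0351), fulvestrant replicate 1 (0.55, 0.0114) or all samples numbered 1 (0.76, 1.23e-05). It also passed with a term for replicate 1 against the others (adjusted p = 0.0402), in a fit on these 2 groups alone (adjusted p = 0.0349) and with voom weights (adjusted p = 0.0488). E2 against vehicle gave 0.02 for *Ccnd1*, with an interval of -0.36 to 0.40. Leaving out samples or numbers moved this value between -0.14 and 0.21.

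*Ccnd2*, encoding cyclin D2, lies on chr6:127125162-127152193 on the minus strand. Replicates 1 to 3 of the 4 groups gave normalized counts of 32940.4, 26035 and 26728 in vehicle, 32532.5, 30319 and 28025 in E2, 28681.5, 27799 and 27873 in E2 plus fulvestrant, and 28985.5, 28318 and 26752 in fulvestrant. The groups overlapped, and the highest sample exceeded the lowest by 1.27-fold. The difference was 0.09 (interval -0.08 to 0.26) with E2 and -0.06 (interval -0.18 to 0.06) with fulvestrant on average. The E2 value was 0.17 without vehicle replicate 1, 0.03 without vehicle replicate 2 and -0.01 after quantile normalization.

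*Ccnd3*, encoding cyclin D3, lies on chr17:47505051-47599691 on the plus strand. The normalized counts of the 3 replicates were 6095, 5622.5 and 5485.5 in vehicle, 6736, 5898 and 5939.8 in E2, 8031, 6621 and 6564 in E2 plus fulvestrant, and 7556.5, 5872 and 6245 in fulvestrant. Within each number, *Ccnd3* was higher with fulvestrant in 6 of 6 pairs and higher with E2 in 6 of 6 pairs, although the groups overlapped. The mean fulvestrant difference of 0.19 (SE 0.04, adjusted p = 0.00387) was 1.14-fold, below the fold threshold. Over the alternatives its adjusted p ran from 0.00179 to 0.346, the last without the replicate block. The E2 difference was 0.11 (interval -0.01 to 0.23, adjusted p = 0.511).

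*Cdk4*, the more abundant of the 2 cyclin D kinases in these cells, lies on chr10:127063534-127067920 on the plus strand. In replicates 1 to 3 the normalized counts were 4704, 6168 and 5554 in vehicle, 4708, 6477 and 6577 in E2, 4652, 6049 and 6305.5 in E2 plus fulvestrant, and 4264, 6235 and 6557 in fulvestrant. Replicate 1 was lowest in all 4 groups, and the groups overlapped almost fully. The mean fulvestrant difference was -0.01 (interval -0.11 to 0.09), so a *Cdk4* change as large as the 0.36 of *Cdk6* lay outside the interval. The E2 difference was 0.11 (interval -0.04 to 0.25), and between 0.03 and 0.16 when samples or numbers were left out.

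*Cdk6* lies on chr5:3341485-3531008 on the plus strand. Its normalized counts in replicates 1 to 3 were 699, 903 and 1014 in vehicle, 694, 1141.5 and 901 in E2, 932, 1286 and 1238 in E2 plus fulvestrant, and 850.5, 1409 and 1147 in fulvestrant. Replicate 1 was lowest in every group and the groups overlapped, but *Cdk6* was higher with fulvestrant in 6 of 6 pairs. The difference was 0.37 (SE 0.09, adjusted p = 0.0198) for fulvestrant against vehicle and 0.35 (SE 0.09, adjusted p = 0.0293) for E2 plus fulvestrant against E2, both called. The average was 0.36 (interval 0.22 to 0.50, adjusted p = 0.00199), and it stayed between 0.30 and 0.40 under every alternative, with adjusted p from 0.00165 to 0.398, the last without the replicate block. Against vehicle the call was lost without vehicle replicate 2 (0.26, adjusted p = 0.0837) or fulvestrant replicate 2 (0.29, 0.102), without all samples numbered 2 (0.23, 0.161) or 3 (0.46, 0.0764), in a fit on these 2 groups alone (adjusted p = 0.106) and without the replicate block (0.902). In cells given E2 it was lost without E2 replicate 1 (0.33, adjusted p = 0.0825), E2 replicate 3 (0.29, 0.134), or any of the 3 samples of E2 plus fulvestrant (adjusted p from 0.0644 to 0.117), and without all samples numbered 1 (0.32, adjusted p = 0.0887) or 3 (0.30, 0.209). It was lost as well without a variance trend (adjusted p = 0.0621) and without the replicate block (0.931). E2 against vehicle gave 0.05 for *Cdk6* (interval -0.15 to 0.25), and between -0.09 and 0.16 when samples or numbers were left out.

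Among the brakes, *Cdkn1a*, encoding p21, lies on chr17:29090976-29100727 on the plus strand. Replicates 1 to 3 of the 4 groups gave normalized counts of 6618, 7391 and 7125 in vehicle, 8269.7, 8242 and 8135 in E2, 7687, 8129 and 8223 in E2 plus fulvestrant, and 7081, 7939 and 8242 in fulvestrant. The mean was 8215 ± 71.3 (SD, n = 3) in E2 and 7045 ± 393 in vehicle. The E2 difference of 0.22 (SE 0.05) was the E2 change of these genes with the smallest unadjusted p, 0.00159, but its adjusted p was 0.284 and it was not called. With fulvestrant present, E2 gave 0.05 (interval -0.07 to 0.17). The difference between the fulvestrant changes with and without E2 was -0.17 (interval -0.34 to -0.01, adjusted p = 0.944).

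*Cdkn1b*, encoding p27, lies on chr6:134920401-134925513 on the plus strand. The normalized counts of the 3 replicates were 5327, 4010.5 and 3797 in vehicle, 5100.5, 3818 and 3856 in E2, 4619.7, 3279 and 3471 in E2 plus fulvestrant, and 5274, 3216 and 3069.9 in fulvestrant. Replicate 1 was high throughout, and *Cdkn1b* was lower with fulvestrant in 6 of 6 pairs, in replicate 1 without E2 by only -0.01. The mean fulvestrant difference was -0.19 (interval -0.30 to -0.08, adjusted p = 0.0155), or 0.88-fold, which did not reach the fold threshold. Without the replicate block its adjusted p was 0.691, and the alternatives ran from 0.000576 to 0.691. Against vehicle alone it was -0.21 (adjusted p = 0.0666), and it passed both thresholds without fulvestrant replicate 1 (-0.32, adjusted p = 0.00301) or without the samples numbered 1 (-0.31, 0.00416).

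*Cdkn2c*, encoding p18, lies on chr4:109660876-109667189 on the minus strand. Its normalized counts were 163, 201 and 173 in vehicle, 171, 266 and 252 in E2, 161.5, 179.6 and 199.7 in E2 plus fulvestrant, and 149.9, 187 and 189.7 in fulvestrant, in replicates 1 to 3. E2 replicates 2 and 3 were the 2 highest samples, while E2 replicate 1 lay within the vehicle range. The E2 difference was 0.34 (SE 0.12, unadjusted p = 0.0191, adjusted p = 0.468), and E2 plus fulvestrant against E2 gave -0.33 (SE 0.12, adjusted p = 0.11). Both were past the fold threshold, at 1.26-fold and 0.80-fold, but neither was called. Fulvestrant against vehicle gave -0.03 (interval -0.30 to 0.24).

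*Rb1* lies on chr14:73183673-73325822 on the minus strand. In replicates 1 to 3 the normalized counts were 1244, 957 and 1036 in vehicle, 1343, 1006 and 974 in E2, 1392.5, 1050.4 and 1032.5 in E2 plus fulvestrant, and 1371, 1077 and 999 in fulvestrant. The samples numbered 1 were the 4 highest, and the groups overlapped. The difference was 0.03 (interval -0.10 to 0.16) with E2 and 0.08 (interval -0.01 to 0.17, adjusted p = 0.198) with fulvestrant on average.

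*Wee1*, encoding the kinase that restrains CDK1, lies on chr7:110122046-110143286 on the plus strand. Its normalized counts in replicates 1 to 3 were 662, 621 and 609 in vehicle, 655, 496 and 526 in E2, 941.5, 611 and 603 in E2 plus fulvestrant, and 991, 602 and 634 in fulvestrant. The 2 fulvestrant-treated samples numbered 1 stood far above the other 10, whose range was 496 to 662. The mean fulvestrant difference of 0.27 (interval 0.10 to 0.44, adjusted p = 0.0258) passed the fold threshold of 1.2 at 1.21-fold. It was 0.13 (adjusted p = 0.141) without the samples numbered 1, and 0.34 without those numbered 2 (adjusted p = 0.0678) or 3 (0.0816). The call was also lost without vehicle replicate 1 (0.19), E2 replicate 1 (0.25), E2 plus fulvestrant replicate 1 (0.23) or fulvestrant replicate 1 (0.22), and under either other scaling (0.26, just under the fold threshold). Without the replicate block the adjusted p was 0.532, and over the alternatives it ran from 0.0169 to 0.532. Neither single contrast was called, at 0.20 (adjusted p = 0.26) against vehicle and 0.34 (adjusted p = 0.0722) in cells given E2. Leaving out samples or numbers moved the first between 0.01, without the samples numbered 1, and 0.32, without those numbered 2, and it was 0.05 without vehicle replicate 1 and 0.09 without fulvestrant replicate 1. The second passed without vehicle replicate 1 (adjusted p = 0.0211) or fulvestrant replicate 1 (adjusted p = 0.043). E2 against vehicle gave -0.18 (interval -0.43 to 0.06), and from -0.33 without vehicle replicate 1 to -0.09 without vehicle replicate 2.

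The first question of the design is what E2 does in these cells. By limma with the replicate block, 0 of the 10 genes was called for E2 against vehicle, with 2 at an unadjusted p under 0.05, *Cdkn1a* and *Cdkn2c*. Of all genes 0.0756% were called and 1340 had an unadjusted p under 0.05. By limma with voom weights on recovered reads 0 of the 10 was called too. The median difference of the 10 was 0.07, beside 0.01 over all genes, and the range was -0.18 to 0.34. Within replicate numbers, 1 of the 10 genes, *Ccnd3*, had 1 direction in all 6 E2 pairs, beside 6.11% of all genes. With fulvestrant present, E2 plus fulvestrant against fulvestrant gave 0 calls of 10 by limma (0% of all genes), 0 of the 10 at an unadjusted p under 0.05 and 255 of all genes, and a range of -0.08 to 0.11.

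**Figure D3:**
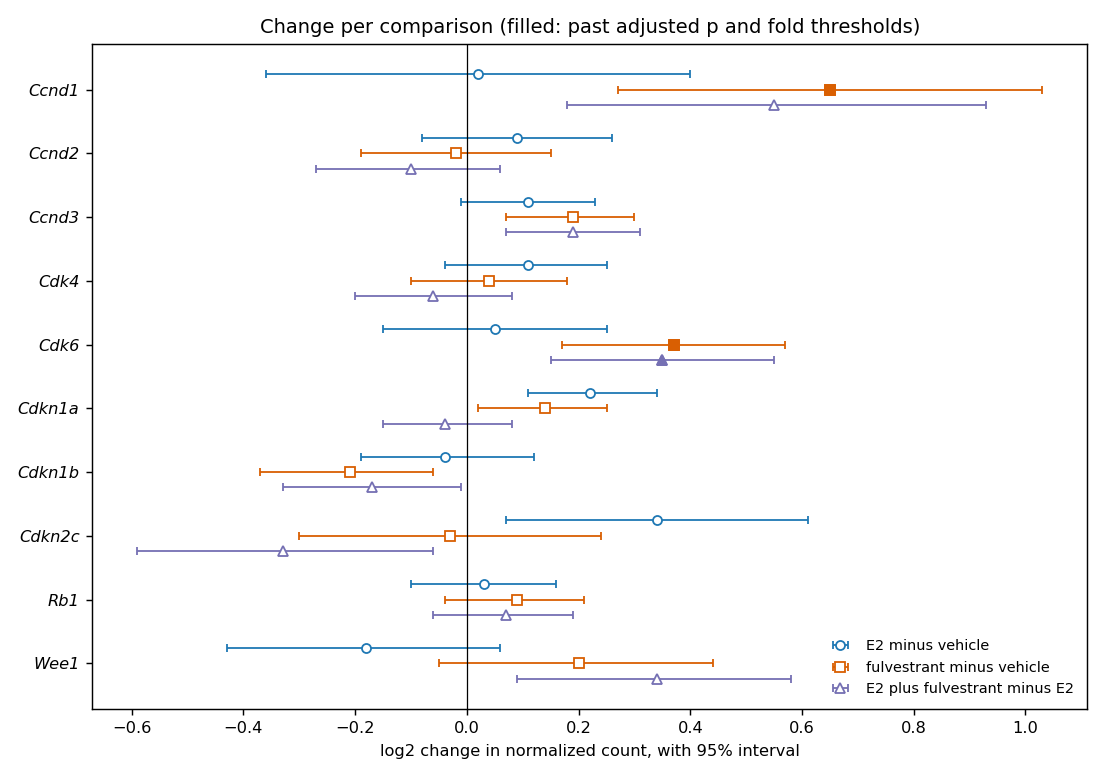
Log2 change in normalized count with its 95% interval for the 10 genes in 3 comparisons, with filled symbols for changes past both thresholds. *Ccnd1* (0.65) and *Cdk6* (0.37) are filled for fulvestrant against vehicle, *Cdk6* (0.35) for E2 plus fulvestrant against E2, and nothing is filled for E2 against vehicle.

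The second question is what fulvestrant does, with and without E2. No ESR1-specific treatment was among the groups. These 2 fulvestrant comparisons share no sample with each other, but each shares its control with the E2 comparisons, and their mean is made of both. Against vehicle, fulvestrant gave 2 calls of 10, *Ccnd1* and *Cdk6*, both higher, beside 12.5% of all genes called in either direction. In cells given E2 it gave 1 call of 10, *Cdk6*, beside 9.60%. For the mean of both there were 3 calls of 10, *Ccnd1*, *Cdk6* and *Wee1*, all higher, beside 15.5% of all genes in either direction (1020 genes higher and 1034 lower). Without the replicate block there were 0 by limma, beside 310 of all genes. At an adjusted p alone, *Ccnd3* and *Cdkn1b* brought the number to 5 of 10, beside 28.4%. *Ccnd1*, *Ccnd3* and *Cdk6* were higher and *Cdkn1b* lower in all 6 fulvestrant pairs, 4 of the 10 genes, beside 27.2% of all genes with 1 direction in all 6. The replicate 1 pair without E2 was nearly level for *Ccnd1* (0.00) and *Cdkn1b* (-0.01). The median mean difference of the 10 was 0.06, beside 0.01 over all genes, with 6 above 0 and 4 below. The fibroblast marker list moved with the same treatment, with 7 of 7 below 0, 5 of them called, and a median of -0.43. Among markers of other cells, *Cd14* (0.46, adjusted p = 0.0114) and *Myh11* (0.92, adjusted p = 0.0321) rose and *Notch3* fell (-0.58, adjusted p = 0.00845), while *Cd68* (0.43, adjusted p = 0.159) and *Tek* (0.14, adjusted p = 0.434) were not called. The summed count of the 2 measured immune markers was higher in the fulvestrant-treated groups, at low levels over the 12 samples (*Cd68* 28.2 to 111.5, *Cd14* 71.4 to 133.0). The part of these markers in the differences was not tested. In bulk RNA, fewer cells that express a gene and less RNA per cell cannot be told apart.

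Whether the fulvestrant change depends on E2 was tested as an interaction. By limma it gave 0 calls of 10, with 1 gene, *Cdkn1a*, at an unadjusted p under 0.05, and 0% of all genes, with 501 at an unadjusted p under 0.05. The intervals were wide for *Ccnd1* (-0.63 to 0.44) and narrower for *Ccnd3* (-0.16 to 0.17).

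The within-pair values show how far each gene's fulvestrant difference was shared by the 3 numbers. For *Ccnd1* the differences in replicates 1, 2 and 3 were 0.00, 1.02 and 0.93 without E2 and 0.15, 0.75 and 0.76 with E2. Replicates 2 and 3 were close to each other, and replicate 1, where *Ccnd1* was already high in vehicle, showed little difference. For *Wee1* they were 0.58, -0.05 and 0.06 without E2 and 0.52, 0.30 and 0.20 with E2, so the order was the other way round. For *Cdk6* they were 0.28, 0.64 and 0.18 without E2 and 0.42, 0.17 and 0.46 with E2, so replicate 2 gave the highest value without E2 and the lowest with E2. A comparison of the fulvestrant change in replicates 2 and 3 with that in replicate 1 was added after these values were seen. In it the change of *Ccnd1* was 0.79 higher and that of *Wee1* 0.42 lower on the log2 scale (-0.42) in replicates 2 and 3, and these were the 2 of 10 past both thresholds by limma, beside 6.87% of all genes. These values are a description. One side of the comparison is 1 replicate number, whose pairs with and without E2 stand in for replicates, so that the fit does not measure the spread between numbers. The *Wee1* difference no longer passed without any 1 of 9 single samples, and was -0.30 without vehicle replicate 1. What the number 1 stands for is not given in the sources used here, and its part in these differences was not tested.

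**Figure D4:**
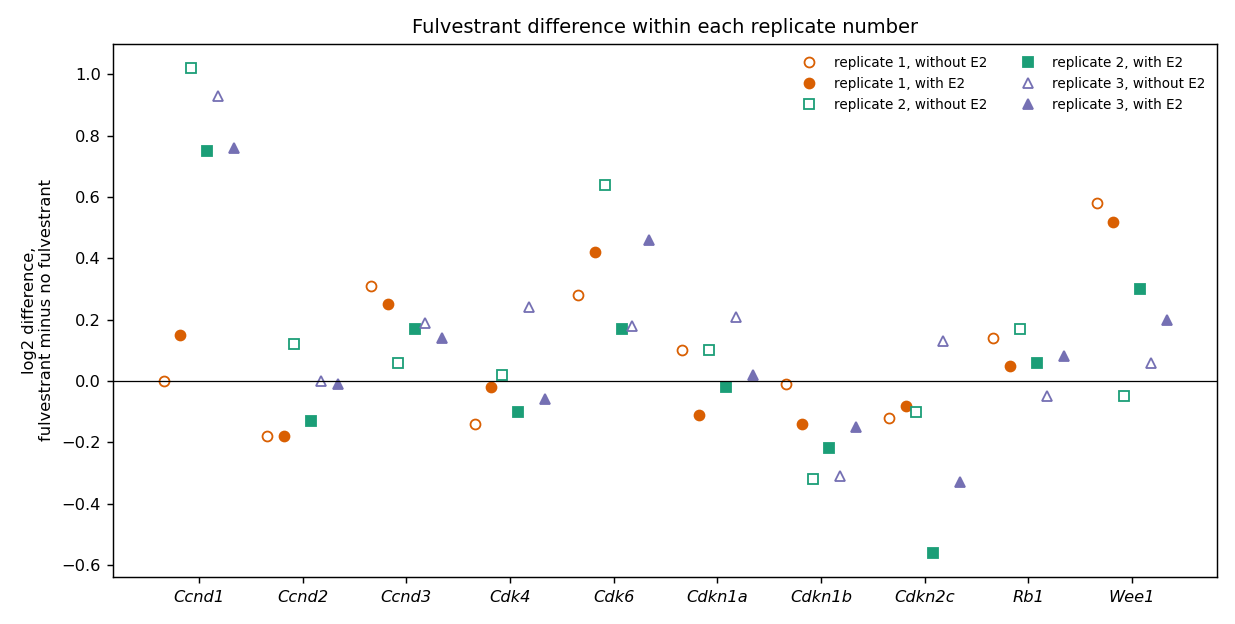
Log2 difference in normalized count between fulvestrant-treated and untreated samples of the same replicate number, without E2 (open symbols) and with E2 (filled symbols), for the 10 genes. *Ccnd1* lies between 0.75 and 1.02 in replicates 2 and 3 and at 0.00 and 0.15 in replicate 1, *Wee1* is highest in replicate 1 at 0.58 and 0.52, and *Cdk6* is above 0 in all 6 pairs.

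Promoter sequence from RefSeq (GRCm38.p6) was held for 6 of the 10 genes, and *Ccnd1*, *Ccnd2*, *Rb1* and *Wee1* had no entry. The 250 bases before the annotated starts of *Cdk6*, *Ccnd3* (2 starts) and *Cdkn1b* are shown because each of these genes had 1 direction in all 6 fulvestrant pairs. For *Cdkn1b* 1 of these pairs differed by only -0.01. Both strands were searched for the full estrogen response element GGTCANNNTGACC, its arm GGTCA, the AP-1 site TGANTCA, the GC box GGGCGG, the CCAAT box CCAAT and the E2F core GCGGGAA, and capitals mark a match to any of these. The full element contains the arm. The windows are chr5:3343643-3343892 for *Cdk6*, chr17:47504801-47505050 and chr17:47593217-47593466 for *Ccnd3*, and chr6:134920151-134920400 for *Cdkn1b*, all on the plus strand.
Cdk6: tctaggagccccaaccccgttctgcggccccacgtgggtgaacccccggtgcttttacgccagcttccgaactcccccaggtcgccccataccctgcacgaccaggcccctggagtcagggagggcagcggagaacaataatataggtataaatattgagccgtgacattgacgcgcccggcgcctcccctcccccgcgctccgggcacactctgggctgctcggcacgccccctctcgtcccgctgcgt
Ccnd3 upstream start: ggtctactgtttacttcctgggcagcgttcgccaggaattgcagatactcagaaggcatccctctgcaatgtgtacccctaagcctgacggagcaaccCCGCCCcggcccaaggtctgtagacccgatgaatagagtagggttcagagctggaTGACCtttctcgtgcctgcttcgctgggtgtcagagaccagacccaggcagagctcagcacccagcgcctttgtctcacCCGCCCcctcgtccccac
Ccnd3 downstream start: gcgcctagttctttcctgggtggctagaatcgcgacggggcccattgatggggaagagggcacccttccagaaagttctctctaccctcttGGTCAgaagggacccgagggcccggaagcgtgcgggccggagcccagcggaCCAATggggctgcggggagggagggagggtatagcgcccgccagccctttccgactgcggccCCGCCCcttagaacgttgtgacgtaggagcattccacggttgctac
Cdkn1b: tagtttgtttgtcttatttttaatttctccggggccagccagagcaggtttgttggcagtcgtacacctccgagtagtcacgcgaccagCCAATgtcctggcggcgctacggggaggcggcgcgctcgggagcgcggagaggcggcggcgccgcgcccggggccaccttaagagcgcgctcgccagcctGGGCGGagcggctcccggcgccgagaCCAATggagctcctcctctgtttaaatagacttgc
The *Cdk6* window matched none of the 6 patterns. Each *Ccnd3* window held 1 GGTCA arm, which 35.2% of all 32851 windows of this length held. The upstream one also held 2 GC boxes and the downstream one 1 GC box and 1 CCAAT box, and the *Cdkn1b* window held 1 GC box (32.7% of all windows) and 2 CCAAT boxes (33.8%). The full element was in 0.0639% of all windows and in none of these 4, the AP-1 site in 6.75% and in none of these 4, and the E2F core in 3.82% and in none of these 4. Among the other members, *Cdk4* held 2 arms and 1 GC box, 1 of the 2 *Cdkn2c* windows held 1 arm and the other 3 GC boxes and 1 E2F core, and 1 of the 2 *Cdkn1a* windows held 2 GC boxes and the other no match. These matches are letters in a window and were not tested for binding.

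The other genes of the pathway came from 7 lists, of which 81 genes were measured. Fulvestrant raised 14 of the 81 and lowered 0 in the mean of both comparisons (17.3% called). Of all genes 15.5% were called, 1020 higher and 1034 lower. The median of the 81 was 0.10, and E2 against vehicle gave 0 calls of 81 by limma, beside 0.0756% of all genes. Among the other CDK inhibitors 1 of 4 rose. It was *Cdkn1c*, encoding p57, which inhibits CDK2 complexes, with 0.85 (interval 0.68 to 1.01, adjusted p = 2.46e-05) and 6 of 6 pairs higher. Its change was smaller in replicates 2 and 3 than in replicate 1, by a called difference of -0.47 in the same descriptive comparison. Among the pocket proteins and E2F factors 1 of 12 rose, *E2f8*, a repressor-type E2F that is itself an E2F target, with 0.82 (SE 0.17, adjusted p = 0.00503). Of the p53 list 1 of 15 rose, *Mdm2*, the ubiquitin ligase of p53, with 0.33 (interval 0.19 to 0.48, adjusted p = 0.00381), and *Cdkn1a*, a classical p53 target, differed by 0.05 (interval -0.03 to 0.13).

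The list with most calls was the mitogen response, in which 8 of 11 rose and 0 fell, beside 15.5% of all genes called in either direction, with a median of 0.43 beside 0.01 over all genes. Not called were *Etv4* (0.32, adjusted p = 0.0967), *Etv5* (0.20, adjusted p = 0.109) and *Spry2* (0.10, adjusted p = 0.196). The list was chosen with earlier results of these data known, so its count is a description and not independent evidence. Its leading members were *Fosl1*, an AP-1 subunit (1.32, adjusted p = 5.49e-05), *Jun*, another AP-1 subunit (0.87, adjusted p = 0.00127), *Dusp6*, a phosphatase induced by ERK that acts back on it (0.67, adjusted p = 7.25e-05), and *Myc* (0.65, adjusted p = 0.000131), each higher in 6 of 6 pairs. In the comparison of replicates 2 and 3 with replicate 1, given here too as a description, 3 of the 11 were past both thresholds, beside 6.87% of all genes. They were *Jun* (-0.91), *Egr1* (-0.58) and *Etv5* (-0.45), all with a smaller change in replicates 2 and 3, and the list median was -0.39. The values of *Fosl1* (-0.30), *Dusp6* (-0.23) and *Myc* (0.05) were not. Of the proliferation markers 3 of 16 rose and 0 fell, beside 15.5% of all genes called in either direction. They were the replication factors *Mcm5* (0.54, adjusted p = 0.0236), *Pcna* (0.35, adjusted p = 0.00479) and *Mcm2* (0.31, adjusted p = 0.0072), with a list median of 0.06. In replicates 2 and 3 against replicate 1 the median of this list was 0.52, with 1 of 16 called, *Mcm6* (0.59), a share near the 6.87% of all genes. The summed normalized count of the 16 ran from 6282 to 7157 in vehicle, 6150.0 to 7861 in E2, 6255.5 to 8370.5 in E2 plus fulvestrant and 5483 to 9565 in fulvestrant, and the groups overlapped. None of the 13 measured later cyclins, kinases and activators (0 of 13) and none of the 10 genes for turnover of D cyclins and p27 (0 of 10) was called, with medians of 0.03 and 0.02.

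**Figure D5:**
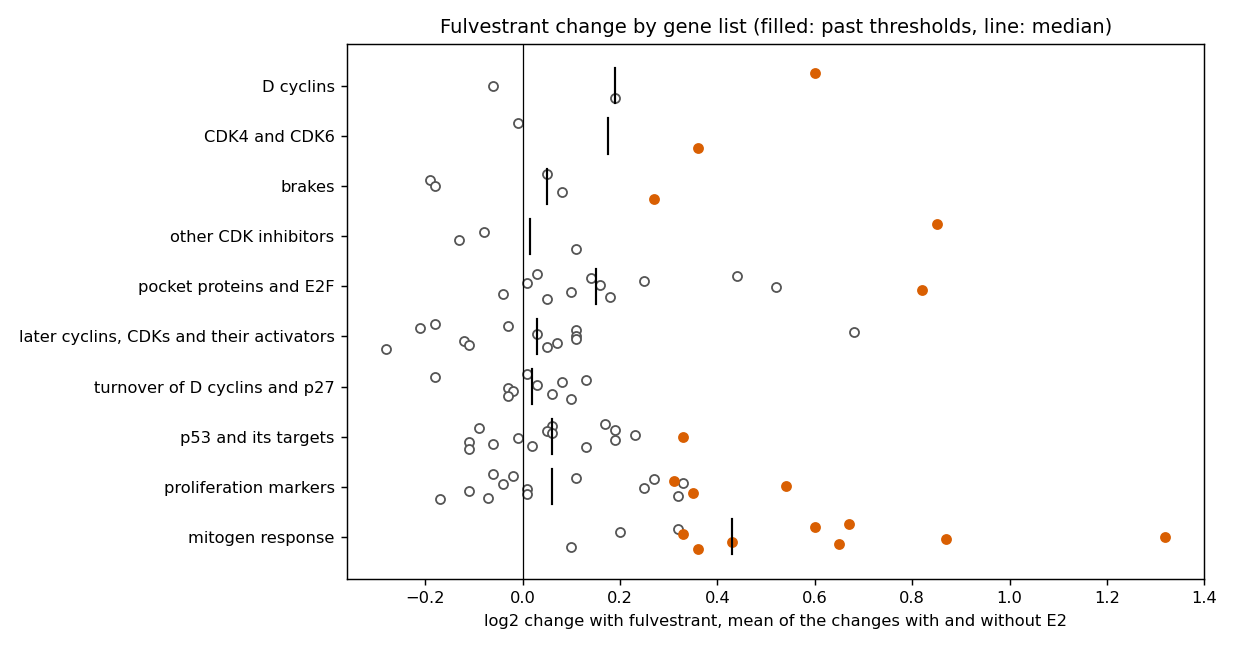
Log2 change with fulvestrant, as the mean of the changes with and without E2, for each gene of 10 lists, filled where it passed both thresholds, with a vertical line at the list median. *Ccnd1* (0.60), *Cdk6* (0.36) and *Wee1* (0.27) are the filled points of the first 3 lists, and 8 of 11 mitogen response genes are filled.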

How the data were processed

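RNA-Seq of 12 samples was used, grouped by the submitters' labels. Per the study's methods and processing notes, the authors trimmed reads with Trimmomatic 0.39, removed ribosomal reads, aligned to mm10 with STAR 2.5.2, counted by gene and strand with HTSeq 0.13.5, removed counts under 10 and scaled by the median of ratios in DESeq2 1.37. The methods also name ComBat_seq and removeBatchEffect for batch effects, and whether either entered the deposited values is not given in the sources used here. What was deposited is a signal, the normalized count of each gene in each sample. Multiplied by a factor per sample, 100.0% came out within 0.01 of a whole read.

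Here, log2(value + 1) was fitted with limma 3.58.1 in R 4.3.3 (eBayes with a trend) over all 13233 genes and 12 samples, with group and replicate number as terms, after a test on simulated data. The comparisons were E2 minus vehicle, each fulvestrant contrast, their mean, E2 with fulvestrant present, and the interaction. The study's methods name batch variation, and same-numbered samples deviated together in all 18 pairs (correlation 0.63 to 0.92), so the number was kept as a block. However, replicates 2 and 3 also correlated with each other (0.63 to 0.79) and against replicate 1 (-0.86 to -0.71). The labels do not say what a number marks.

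The alternatives were other blocks, samples, pseudocounts (0.5 and 10), scalings, a mean of at least 100, no trend, adjusted p alone and leaving samples out. The comparison of replicates 2 and 3 with replicate 1 and a fit with voom weights on the recovered reads were chosen after seeing the data. The genes and all lists were chosen with earlier results of these data known. All 10 genes were named, and from each list up to 4 genes with the largest change among those called for the mean fulvestrant comparison. Lengths, positions and coding sequences came from GENCODE M21 (GRCm38), and per-kb values divide by all annotated exon bases, so they depend on which isoforms are expressed. Same-strand overlap of exons with another gene was 0.0% for all 10. Software was Python 3.11.15, pandas 2.3.3, numpy 2.4.6 and, for plots, matplotlib 3.10.9.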

Additional observations from a re-analysis of the deposited data

Results flagged for a closer look

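For *Ccnd1* and *Wee1*, the change with fulvestrant was not alike in the replicate numbers. The *Ccnd1* change was larger by 0.79 on the log2 scale in replicates 2 and 3 (mean 0.86) than in replicate 1 (mean 0.08). The *Wee1* change was smaller in replicates 2 and 3 (mean 0.13) than in replicate 1 (mean 0.55), a difference of -0.42. Both differences passed the thresholds in limma, but the comparison was chosen after the values of replicate 1 had been seen, and it sets 1 number against 2, with the pairs with and without E2 standing in for replicates. It is therefore a description of these samples and not independent evidence of a difference between numbers. The groups held 3 samples each, too few for a search for single outlying samples.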

How the results depend on the processing

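Of all genes, the calls without the replicate block numbered 1 for E2 against vehicle (10 with it), 69 for E2 plus fulvestrant against E2 (1270), 72 for fulvestrant against vehicle (1648) and 310 for the mean of the 2 (2054), and of the 10 members 0 were called in each. A term for replicate 1 against the others gave 17 genes for E2 against vehicle and, for E2 plus fulvestrant against E2, 1440 genes and 2 members. Fits on only the groups compared gave 57 genes for E2 against vehicle, 1148 genes and 2 members for E2 plus fulvestrant against E2, and 692 genes and 0 members for fulvestrant against vehicle. Without a variance trend the numbers were 3 genes for E2, 1028 genes and 0 members for E2 plus fulvestrant against E2, 1392 genes and 1 member for fulvestrant against vehicle, and 500 genes and 1 member for replicates 2 and 3 against 1. An adjusted p alone gave 1583 genes and 2 members for E2 plus fulvestrant against E2, and 3752 genes and 5 members for the mean. Voom weights gave 16 genes for E2, and 1412 genes and 2 members for E2 plus fulvestrant against E2. Leaving out samples or numbers gave, over all genes and over members, 0 to 59 genes for E2, 316 to 1611 and 0 to 3 members for E2 plus fulvestrant against E2, 399 to 2312 and 0 to 3 members for fulvestrant against vehicle, 0 to 4 genes for E2 with fulvestrant present, 1335 to 2332 and 1 to 3 members for the mean, 0 to 11 genes for the interaction, and 323 to 1020 and 1 to 2 members for replicates 2 and 3 against 1. The low and high ends for genes fall mostly where a whole number is left out, which also leaves fewer samples. For other settings the cause was not tested. Of 1690 changes of single members under alternatives, 1532 kept their direction and side of the threshold, 50 lost a call, 12 gained one, 96 changed sign without a call in either, and 0 reversed a call. Only a change called in the main fit could lose a call. For the mean fulvestrant difference the call was lost in 10 of 24 alternatives for *Wee1*, 3 of 24 for *Ccnd1* and 1 of 24 for *Cdk6*. Against vehicle it was lost in 9 of 25 for *Ccnd1* and 6 of 25 for *Cdk6*, and in cells given E2 in 9 of 25 for *Cdk6*. For replicates 2 and 3 against 1 it was lost in 12 of 21 for *Wee1* and 0 of 21 for *Ccnd1*. Other scalings moved the median of all genes by at most 0.02. The planned count-model tests on recovered reads were not run. With 3 samples a group, E2 differences of the size seen for *Cdkn1a* (0.22) or *Cdkn2c* (0.34) were not called here.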
